A study of Mus musculus with 8 samples.

Results

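Neurotrophins are secreted growth factors that keep neurons alive and tune their synapses, and BDNF is the one most widely made in the brain. BDNF signals through the receptor tyrosine kinase TrkB and NT-3 mainly through TrkC, while p75NTR binds the neurotrophins and their precursors and sortilin acts with it as a co-receptor for the precursors. In the hypothalamus BDNF and TrkB are known for restraining food intake and body weight. Described here are the 6 genes of this system, the ligands *Bdnf* (BDNF) and *Ntf3* (NT-3), the kinase receptors *Ntrk2* (TrkB) and *Ntrk3* (TrkC), and *Ngfr* (p75NTR) and *Sort1* (sortilin), out of 35968 genes quantified in SST neurons of the tuberal nucleus (TN), the TN SST neurons. They were chosen by name, and all 6 have transcripts in the files.

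The neurons came from 4 female and 4 male mice carrying 1 copy of an *Sst-Cre* allele (Ssttm2.1(cre)Zjh/J / +), in which Cre recombinase is expressed from the *Sst* locus. All 8 received a Cre-dependent tdTomato virus (AAV2-flex-tdTomato) in the TN, both sides of the brain, and red, live, nucleated cells were sorted after dissection and dissociation of the region (Flow-Seq). There was 1 library per mouse, the mice of each sex are numbered 1 to 4 and values of single mice follow that order, neither age in weeks nor estrous stage is given for these mice, and no unsorted cells were analysed here. The study profiled these neurons to ask whether they can respond to estrogens or to signals of white fat, and the comparison here is females against males. Because the virus marks cells in which Cre was active once it was present, and because a sort carries some other cells along, levels are those of the sorted pool, in which fewer cells of a type and less RNA per cell cannot be told apart.

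Estimated counts summed to between 7.83 and 17.6 per mouse, in units of 1000000, with the highest total in female 3. A count of 3 corresponded to between 0.148 and 0.458 counts-per-million (CPM), and a gene below that is treated as not detectable; this limit covers counting error only. The single gene *Lars2*, picked out after its values were seen, held between 9.34% of the matched counts in female 3 and 34.4% in female 2. *Sst*, whose locus drives the Cre used for the sort, had a mean of 1188 transcripts-per-million (TPM). Markers of glia were also present, as given with the results they touch. In its highest mouse, the summed list reached 3197 CPM for pan-neuronal genes, 2545 CPM for microglia and 1812 CPM for the oligodendrocyte lineage. Of 15194 genes with enough counts to test, 24 differed between the sexes (0.158%) at an adjusted p under 0.05 (quasi-likelihood test of edgeR, Benjamini-Hochberg adjusted).

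The Trk genes make several proteins, and which one a transcript encodes is decided after the exon for the membrane-spanning part. *Ntrk2* (ENSMUSG00000055254.15) lies on the plus strand of chromosome 13 in mm10, from 58806569 to 59133970. Full-length TrkB carries an intracellular kinase. The truncated form T1 ends soon after the membrane, lacks the kinase and is known as the form that astrocytes make. The transcripts part ways after a shared coding exon from 58878163 to 58878262. The last 30 bases of that exon are shown in lower case, followed in capitals by the start of the next coding exon, which lies from 58985802 to 58985990 in full-length *Ntrk2-201*, from 58932023 to 58937027 in *Ntrk2-202*, from 58887271 to 58888479 in *Ntrk2-209* and from 58878339 to 58878749 in *Ntrk2-205*. The capitals of *Ntrk2-202* end at its stop codon, and the others show the first 60 bases.
Ntrk2-201: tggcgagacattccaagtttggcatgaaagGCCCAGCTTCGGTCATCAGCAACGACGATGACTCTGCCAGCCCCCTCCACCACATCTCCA
Ntrk2-202: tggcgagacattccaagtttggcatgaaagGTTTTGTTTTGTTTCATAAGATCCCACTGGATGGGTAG
Ntrk2-209: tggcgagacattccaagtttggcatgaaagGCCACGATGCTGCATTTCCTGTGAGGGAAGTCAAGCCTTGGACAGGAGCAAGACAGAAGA
Ntrk2-205: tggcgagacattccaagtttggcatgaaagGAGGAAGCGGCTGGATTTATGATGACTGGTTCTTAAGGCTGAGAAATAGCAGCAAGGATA

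Translated from the annotated coding sequence, full-length *Ntrk2* transcripts (*Ntrk2-201* and *Ntrk2-207*) encode 821 residues and T1 transcripts (*Ntrk2-202* and *Ntrk2-204*) 476. The other truncated transcripts encode 492 (*Ntrk2-205*), 489 (*Ntrk2-209*) and 466 residues (*Ntrk2-208*). Below, full-length means a coding sequence that ends at the stop codon of the longest coding transcript, truncated means a complete coding sequence with another stop, and the remaining transcripts, which are noncoding, retain an intron or have an incomplete coding sequence, are called other.

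*Ntrk3* (ENSMUSG00000059146.12) lies on the minus strand of chromosome 7 from 78175959 to 78738012. Its truncated transcript *Ntrk3-202* leaves the shared coding exon (78356027 to 78356215) for an exon from 78304292 to 78304426, whereas full-length *Ntrk3-201* goes on to the exon from 78260284 to 78260414, shown in the same way.
Ntrk3-201: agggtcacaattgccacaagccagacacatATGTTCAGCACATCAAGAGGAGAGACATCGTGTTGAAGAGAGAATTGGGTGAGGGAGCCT
Ntrk3-202: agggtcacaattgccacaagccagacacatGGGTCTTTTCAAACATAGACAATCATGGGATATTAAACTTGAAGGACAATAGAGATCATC

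The encoded proteins have 825 residues for *Ntrk3-201* and 612 for *Ntrk3-202*. Full-length TrkC also comes with small exons inserted in the part coding for the kinase side of the protein. *Ntrk3-205* (839 residues) has an extra exon of 42 bases at 78204103 to 78204144, and *Ntrk3-206* (864 residues) has that exon and a further one of 75 bases at 78229487 to 78229561. They are shown because the *Ntrk3* transcripts described below differ by them.
Ntrk3 42-base exon: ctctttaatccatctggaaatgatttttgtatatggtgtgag
Ntrk3 75-base exon: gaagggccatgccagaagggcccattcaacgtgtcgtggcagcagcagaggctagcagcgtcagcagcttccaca

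Measured per transcript length, the kinase receptors and *Sort1* far exceeded the ligands. Mean TPM over the 8 mice was 141.6 for *Ntrk2*, 71.2 for *Ntrk3*, 34.3 for *Sort1*, 5.52 for *Ngfr*, 3.61 for *Bdnf* and 0.0976 for *Ntf3*. In all 8 mice *Ntrk2* lay above *Ntrk3*, *Ntrk3* above *Sort1* and *Sort1* above *Ngfr*. The neighbours *Ngfr* and *Bdnf* were not separated, since *Ngfr* was the higher in 6 of 8 mice and the ranges ran from 2.69 to 9.77 TPM and from 1.49 to 6.79 TPM. By mean TPM over all genes, *Ntrk2* ranked 1089 and *Bdnf* 12894.

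**Figure D1:**
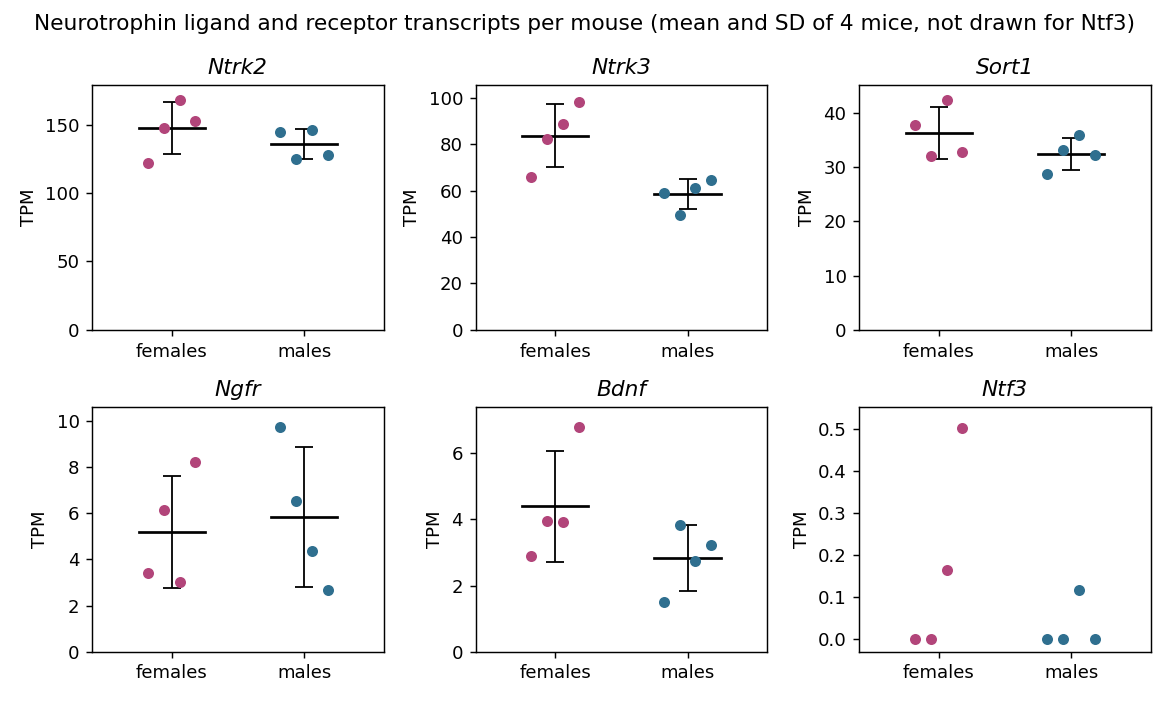
TPM of each of the 6 genes in females and males, with each point 1 mouse, horizontal bars the means and error bars the SD over 4 mice (no mean or SD is drawn for *Ntf3*, which was at 0 in 5 mice). Each panel has its own TPM axis. The sexes overlap in every panel but that of *Ntrk3*, where females lie between 65.8 and 98.1 TPM and males between 49.7 and 64.6. The share of all genes without such overlap in TPM was not counted.

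Among the ligands, *Bdnf* (ENSMUSG00000048482.14, chromosome 2, plus strand, 109674700 to 109727007) was low but detected in every mouse. Its level was 6.66, 9.47, 7.80 and 14.8 CPM in the females and 3.34, 9.26, 6.17 and 7.56 CPM in the males. Female 4 was the highest and male 1 the lowest, and the sexes overlapped. The log2 fold change of females over males was 0.56 (SE 0.348, 95% interval -0.22 to 1.34), which did not pass the test (edgeR adjusted p = 0.386). It was 0.27 without female 4, 0.34 without male 1, and 0.77 at most, without male 2. At this depth both no difference and a difference of more than 1 on the log2 scale lie within the interval.

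*Ntf3* (ENSMUSG00000049107.13, chromosome 6, minus strand, 126101412 to 126166910) had 4 counts in female 4, 2 in female 3, 1 in male 3 and 0 in the other 5 mice. It exceeded the limit of 3 counts in female 4 alone and did not enter the test. *Ntf5*, which encodes NT-4, the other TrkB ligand, lay between 0 and 0.183 CPM and also had too few counts to be compared between the sexes. It is named here because it was among the pathway genes left untested.

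*Bdnf* transcripts begin at 1 of several first exons, with several promoters among them, joined to a common last exon that codes for the protein. Most encode 249 residues, while *Bdnf-201* encodes 257 and *Bdnf-202* 289. The annotated first exons are numbered here by start position, from 1 to 9. Numbers 7 and 8 have different starts and the same end, at 109694621. Of the 715 *Bdnf* counts of the 8 mice together, 40.1% were assigned to first exon 6 (from 109693563), 21% to exon 2 (from 109675897), 17.5% to exon 4 (from 109692436) and 11.3% to exon 1 (from 109674700). Exons 3, 5, 7 and 8 took 2.88%, 4.39%, 1.97% and 0.937%, and exon 9 took none. Per mouse these counts were small. For exon 6 they were 14.9, 55.3, 54.2 and 82.3 in the females and 13.3, 22.9, 43.5 and 0 in the males, and for exon 4 they were 5.0, 0, 27.8 and 40.6 in the females and 22.5, 23.4, 5.9 and 0 in the males. Male 4 had counts from neither, and the sexes overlapped for both, so the order among first exons holds for the pool of mice and not for each. The assignment also rests on little sequence, since 8.75% of the 31-base words of the transcript with exon 6 and 8.51% of those of the transcript with exon 4 occur in no other *Bdnf* transcript.

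The promoter of first exon 4 is the best known of them for its response to neuronal activity and calcium, through a site for CREB. The 250 bases before this exon are chr2:109692186-109692435 (GRCm38.p6, plus strand, within the gene between first exons 3 and 4), taken from the RefSeq promoter set, with the letters of the CREB type motif in capitals.
Bdnf first exon 4: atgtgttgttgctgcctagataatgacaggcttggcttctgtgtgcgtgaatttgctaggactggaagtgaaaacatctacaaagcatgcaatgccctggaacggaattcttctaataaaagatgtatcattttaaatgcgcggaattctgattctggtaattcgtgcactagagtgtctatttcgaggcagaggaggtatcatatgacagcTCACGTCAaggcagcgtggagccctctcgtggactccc

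The capitals begin at position -38, counted from the start of the exon. A pair of spellings was searched on both strands, TCACGTCA and the palindrome TGACGTCA, in windows of 250 bases before to 50 after each start. The first occurred in 0.442% and the palindrome in 1.79% of all 32817 promoters of the set. Of the 7 *Bdnf* promoters 1 held a match, and none of the 2 of *Ntf3* or the single promoters of *Ntrk2* and *Ngfr* did. The match describes the letters only, and neither binding nor promoter activity was measured here.

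*Ntrk2* was the most abundant of the 6 genes, and no difference between the sexes passed the test. Its level was 457, 583, 558 and 531 CPM in the females and 546, 466, 554 and 472 CPM in the males. The lowest and the highest mouse were both female. The log2 fold change was 0.06 (SE 0.0974, 95% interval -0.16 to 0.28, edgeR adjusted p = 0.746), an interval that leaves out changes above 0.28 on the log2 scale in either direction.

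Most *Ntrk2* RNA was of the full-length, kinase-bearing class. This class measured 87.3, 100.5, 129 and 96.1 TPM in the females and 94.0, 71.0, 101 and 71.1 TPM in the males. The truncated class measured 33.0, 46.3, 31.9 and 54.6 TPM in the females and 47.5, 53.5, 44.5 and 55.4 TPM in the males. Full-length exceeded truncated in every mouse, by a ratio of between 1.28 (male 4) and 4.04 (female 3). The *Ntrk2-201* transcript alone held 47.4% of the gene's TPM, and the T1 transcripts *Ntrk2-202* and *Ntrk2-204* held 11.4% each.

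**Figure D2:**
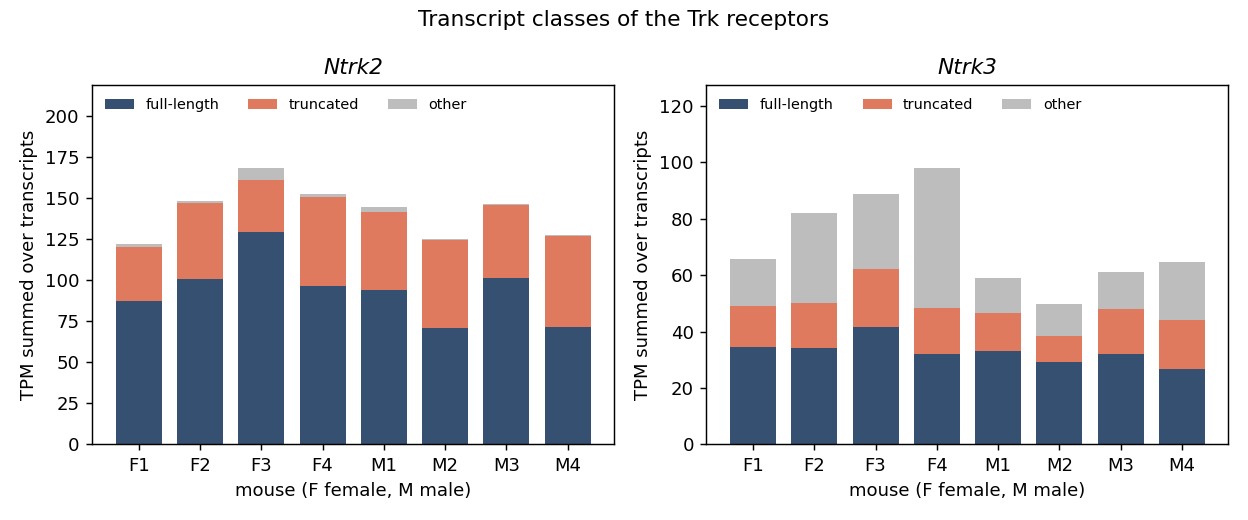
TPM summed over full-length, truncated and other transcripts of *Ntrk2* (left) and *Ntrk3* (right) in each mouse, stacked so that the bar height is the TPM of the gene. Full-length is the largest class of *Ntrk2* in every mouse, from 71.0 to 129 TPM, while for *Ntrk3* the other class reaches 49.7 TPM in female 4.

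The truncated share of coding *Ntrk2* was 27.5%, 31.5%, 19.8% and 36.2% of TPM in the females, and 33.5%, 43.0%, 30.6% and 43.8% in the males. Female 3 was the lowest and males 2 and 4 the highest, and the sexes overlapped. The mean was 28.8% ± 6.94 (SD, n = 4) in females and 37.7% ± 6.65 (SD, n = 4) in males, a difference of -8.97 percentage points (2-sided exact permutation test, p = 0.143, where the smallest p that 4 against 4 mice can give is 0.0286). As a share of estimated counts, which weights long transcripts more, the means were 17.5% and 25.7% and the difference -8.24 points (exact permutation p = 0.0571). Between the 2 blocks of values deposited for each mouse the share moved by a median of 2.42 points and at most 5.60 points (male 1), less than the range among mice of either sex. Of the 31-base words of the full-length and truncated classes, 74.5% and 76.6% are found in no transcript of the other class, so reads could be told apart over most of the sequence.

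Split by stop codon after these values were seen, T1 transcripts took 13.0%, 17.9%, 8.49% and 16.2% of the coding *Ntrk2* counts in the females and 18.9%, 21.6%, 18.8% and 28.2% in the males, so that every male lay above every female, narrowly for female 2 and male 3. By TPM the same share overlapped, from 13.0% to 25.8% in females and from 23.9% to 33.7% in males. The other truncated transcripts took 9.45% ± 4.95 (SD, n = 4) of coding TPM in females and 10.1% ± 3.9 (SD, n = 4) in males. The sexes thus lay apart for T1 on the scale of counts and not on that of TPM, and no test is given for a split chosen in this way.

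Fitted as separate rows in place of the genes, the *Ntrk2* classes leaned in opposite directions and neither passed the test. Full-length *Ntrk2* had a log2 fold change of 0.21 (SE 0.125, 95% interval -0.07 to 0.49, edgeR adjusted p = 0.371). For truncated *Ntrk2* it was -0.48 (SE 0.211, 95% interval -0.95 to -0.00, unadjusted p = 0.0484, edgeR adjusted p = 0.241), with 60.6 to 119 CPM in females and 115 to 151 CPM in males. None of the 6 classes of *Ntrk2* and *Ntrk3* was called by edgeR, nor any of the 5 for which DESeq2 gave an adjusted p, against 0.158% of the 15198 rows of that table in edgeR, and 2 had an unadjusted p under 0.05, truncated *Ntrk2* and full-length *Ntrk3*.

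*Ntrk3* was the one of the 6 genes for which the sexes came close to parting, and the outcome depended on the scale. In CPM it was 235, 267, 257 and 264 in the females and 241, 173, 220 and 198 in the males. Female 1 fell below male 1, and the other 3 females lay above all males. The log2 fold change was 0.30 (SE 0.104, 95% interval 0.06 to 0.53), with an unadjusted p of 0.0177 that did not hold over all genes (edgeR adjusted p = 0.176). Unadjusted p-values under 0.05 were common, at 20.5% of all genes tested, with 9.86% higher in females and 10.7% higher in males. The 1 member of the 5 tested, at that background, is not a result about the members.

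In TPM the *Ntrk3* sexes did not overlap, with 65.8, 82.1, 88.9 and 98.1 in the females against 58.9, 49.7, 61.3 and 64.6 in the males. The 2-sided exact permutation test gave p = 0.0286, the smallest possible, not adjusted for the 6 genes. The share of all genes without overlap in TPM was not counted, so this is not a result about *Ntrk3*. In log2 CPM, where *Ntrk3* overlapped, 10.4% of all tested genes did not overlap (6.48% higher in females). Of the difference of 25.1 TPM between the means, 17.0 TPM lay in the class of other transcripts. The 16 other transcripts of *Ntrk3* measured 16.9, 32, 26.6 and 49.7 TPM in the females and 12.2, 11.1, 13.2 and 20.6 TPM in the males. One of them, *Ntrk3-220*, is 435 bases long and held 20.3% of the gene's TPM on 0.922% of its counts, since dividing by a short length makes few reads weigh heavily. Another, *Ntrk3-216* (224 bases), measured 0, 10.1, 0.633 and 19.8 TPM in the females and 0 in every male. These values stand on at most 5.70 estimated counts in a mouse. With only the coding transcripts, *Ntrk3* was 48.4 to 62.3 TPM in females and 38.5 to 48.1 TPM in males, still without overlap but with female 4 just above male 3. On this coding measure *Ntrk2* exceeded *Ntrk3* by 2.46 to 3.23 times and *Ntrk3* exceeded *Sort1* by 1.17 to 1.64 times, so that the order of the receptors stood in all 8 mice.

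Full-length *Ntrk3* had a log2 fold change of 0.31 (SE 0.113, unadjusted p = 0.0224, edgeR adjusted p = 0.189) and truncated *Ntrk3* of 0.18 (SE 0.175, edgeR adjusted p = 0.582). The truncated share of coding *Ntrk3* TPM was 29.6%, 31.7%, 33.4% and 33.7% in the females and 28.9%, 24.4%, 33.3% and 39.6% in the males. Its mean was 32.1% ± 1.87 (SD, n = 4) in females and 31.5% ± 6.48 (SD, n = 4) in males. As a share of counts the means were 14.7% ± 1.09 (SD, n = 4) in females and 15.9% ± 3.76 (SD, n = 4) in males. The truncated form was thus the smaller part in every mouse, and males varied more.

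How frequent kinase inserts were in full-length *Ntrk3* depended on the scale. The transcripts with the 42-base exon, *Ntrk3-205* and *Ntrk3-206* together, made up between 43.9% (female 4) and 68.7% (male 2) of full-length TPM, but between 9.27% and 22% of full-length counts in the same mice. *Ntrk3-206*, with both extra exons, was singled out after its values were seen. It took 12.8%, 11.1%, 9.54% and 24.6% of full-length TPM in the females and 3.20%, 4.27%, 1.71% and 0% in the males, so every female lay above every male. These shares stand on 61.0, 39.0, 108 and 129 estimated counts in the females and 17.7, 22.3, 10.5 and 0 in the males. They were not stable between the blocks, since female 3 had 18.8% in the first block and 0% in the second, and no test is given for a transcript picked in this way. *Ntrk3-201* is annotated with a length of 19703 bases and *Ntrk3-205* and *Ntrk3-206* with 2678 and 2774, so the split also depends on how reads outside the coding part are assigned.

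*Ngfr* (ENSMUSG00000000120.6, chromosome 11, minus strand, 95568818 to 95587735), which encodes the p75 receptor, was low and varied nearly 4-fold among mice. It measured 6.66, 12.7, 5.08 and 15.2 CPM in the females and 19.3, 13.6, 8.4 and 5.42 CPM in the males. Both sexes covered almost the same range. The log2 fold change was -0.25 (SE 0.446, 95% interval -1.26 to 0.75, edgeR adjusted p = 0.780), and without male 1, the highest mouse, it was 0.10.

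*Sort1* (ENSMUSG00000068747.14, chromosome 3, plus strand, 108284082 to 108361511), which encodes the sorting receptor sortilin, differed little among mice. Levels were 148, 130, 145 and 122 CPM in the females and 114, 139, 139 and 132 CPM in the males. The log2 fold change was 0.06 (SE 0.0932, 95% interval -0.15 to 0.27, edgeR adjusted p = 0.769), and -0.01 without male 1. Its 2 coding transcripts differ by a cassette exon of 99 bases at 108355472 to 108355570, present in *Sort1-203* (858 residues) and skipped in *Sort1-201* (825 residues), shown here because its use varied widely among mice.
Sort1 cassette exon: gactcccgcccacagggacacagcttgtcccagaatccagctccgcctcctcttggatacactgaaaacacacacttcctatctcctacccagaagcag

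The transcript with the cassette exon took 42.3%, 41.9%, 44.8% and 3.89% of coding *Sort1* TPM in the females and 40.1%, 65.8%, 12.3% and 34.6% in the males. Female 4 and male 3 lay far below the rest and male 2 above it, with no order by sex. Only 132 of the 6806 31-base words of *Sort1-203* (1.94%) are not in *Sort1-201*, so few reads decide this share, and in female 1 it was 53.8% in one block and 30.6% in the other.

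**Figure D3:**
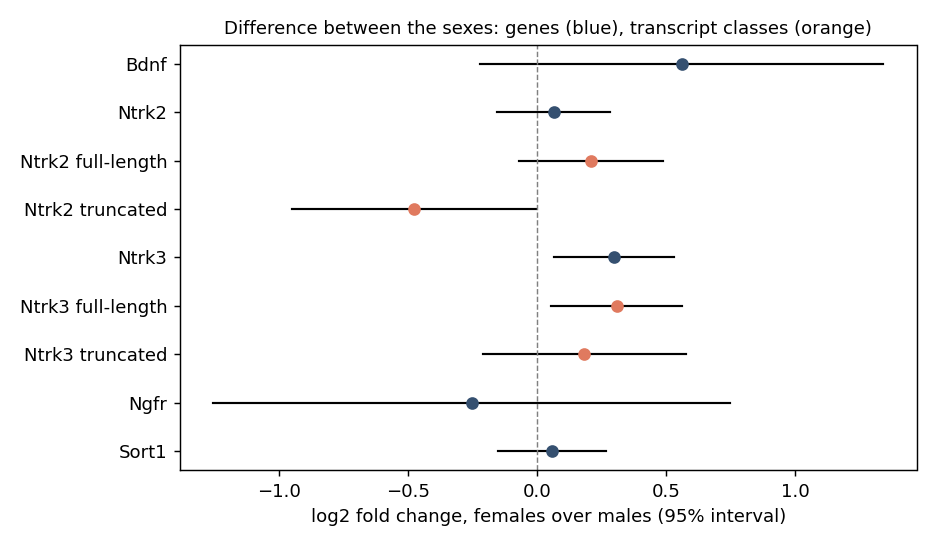
Log2 fold change of females over males for the 5 tested genes (blue points) and for the full-length and truncated classes of *Ntrk2* and *Ntrk3* (orange points), with lines for the 95% interval of the edgeR fit. The intervals of *Ntrk3* (0.06 to 0.53) and of its full-length class lie above 0 and that of truncated *Ntrk2* reaches from -0.95 to just under 0, and none of the 9 passed the adjusted test.

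In all, none of the 5 tested members passed the adjusted test, against a background of 0.158% of genes. DESeq2's Wald test called none of them either, although it called 7.93% of the genes it tested. None of the 5 had sexes that did not overlap in log2 CPM, where 10.4% of all tested genes did (6.48% higher in females and 3.94% higher in males).

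The libraries also differed in marker genes of other cell types, set here beside the Trk transcripts. The 8 pan-neuronal genes were all higher on average in females (median log2 fold change 0.23, none called), and summed to between 2673 and 3197 CPM in females and between 2069 and 2632 CPM in males. Astrocyte markers leaned the other way in 9 of 9 genes (median -0.69, none called), and summed to between 286 and 879 CPM in females and between 673 and 978 CPM in males, and none of them was at 0 in every mouse. The 8 oligodendrocyte lineage genes and the 7 microglial genes were likewise all lower on average in females (medians -1.03 and -1.42, none called). Oligodendrocyte lineage sums were 472 to 1812 CPM in females and 773 to 1786 CPM in males. Microglial sums were 215 to 1299 CPM in females and 508 to 2545 CPM in males. The median over all tested genes was -0.0043.

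Over the 8 mice, *Ntrk3* rose with the mean log2 CPM of the pan-neuronal genes (Pearson r = 0.952, permutation p = 0.000223, Benjamini-Hochberg adjusted over 12 relations p = 0.00268, Spearman rho = 0.929, permutation p = 0.00223, adjusted p = 0.0268). Without males 2 and 4, the mice farthest from the median of the neuronal genes, r was 0.898 (permutation p = 0.0181), and within the sexes it was 0.693 in females and 0.935 in males, with 4 mice each. Full-length *Ntrk2* had an r of 0.848 with the same genes (permutation p = 0.00975, adjusted p = 0.0537, Spearman rho = 0.810, permutation p = 0.0218, adjusted p = 0.131), which fell to 0.477 without those mice. Within the sexes it was 0.924 in females and 0.819 in males. These points share library depth and scaling. *Ntrk3* also had an r above 0.9 with 371 of 10018 genes searched, and the cell types of those genes were not examined.

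Truncated *Ntrk2* leaned with the astrocyte genes instead. Its Pearson r with their mean was 0.815 (permutation p = 0.0134, adjusted p = 0.0537) and Spearman rho 0.690 (permutation p = 0.0694, adjusted p = 0.208), neither of which passed the adjustment. Without female 3 and male 2, the mice farthest from the median of the astrocyte genes, r was 0.539. Within the sexes it was 0.742 in females and 0.402 in males. Full-length *Ntrk2* had an r of -0.717 with the astrocyte genes (permutation p = 0.0379, adjusted p = 0.114, Spearman rho = -0.548, permutation p = 0.171, adjusted p = 0.342), and -0.379 without the same 2 mice. Truncated *Ntrk2* had an r of -0.624 with the pan-neuronal genes (permutation p = 0.0914, adjusted p = 0.183). *Ntrk3* had an r of -0.690 with the astrocyte genes (permutation p = 0.0610, adjusted p = 0.146). *Bdnf*, *Ngfr* and *Sort1* had r between -0.156 and 0.348 with either list over all 8 mice. Within a sex, with 4 mice, their r spread from -0.983 (*Bdnf* with pan-neuronal genes in males) to 0.935 (*Bdnf* with astrocyte genes in males). In females *Bdnf* had 0.200 and 0.184 with the same lists. The oligodendrocyte lineage and microglial lists, which also leaned toward males, were not correlated with these genes. A relation with astrocyte genes therefore cannot be told apart here from one with glial genes in general. The part of glial RNA in the truncated share, and of neuronal RNA in *Ntrk3*, was not tested.

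**Figure D4:**
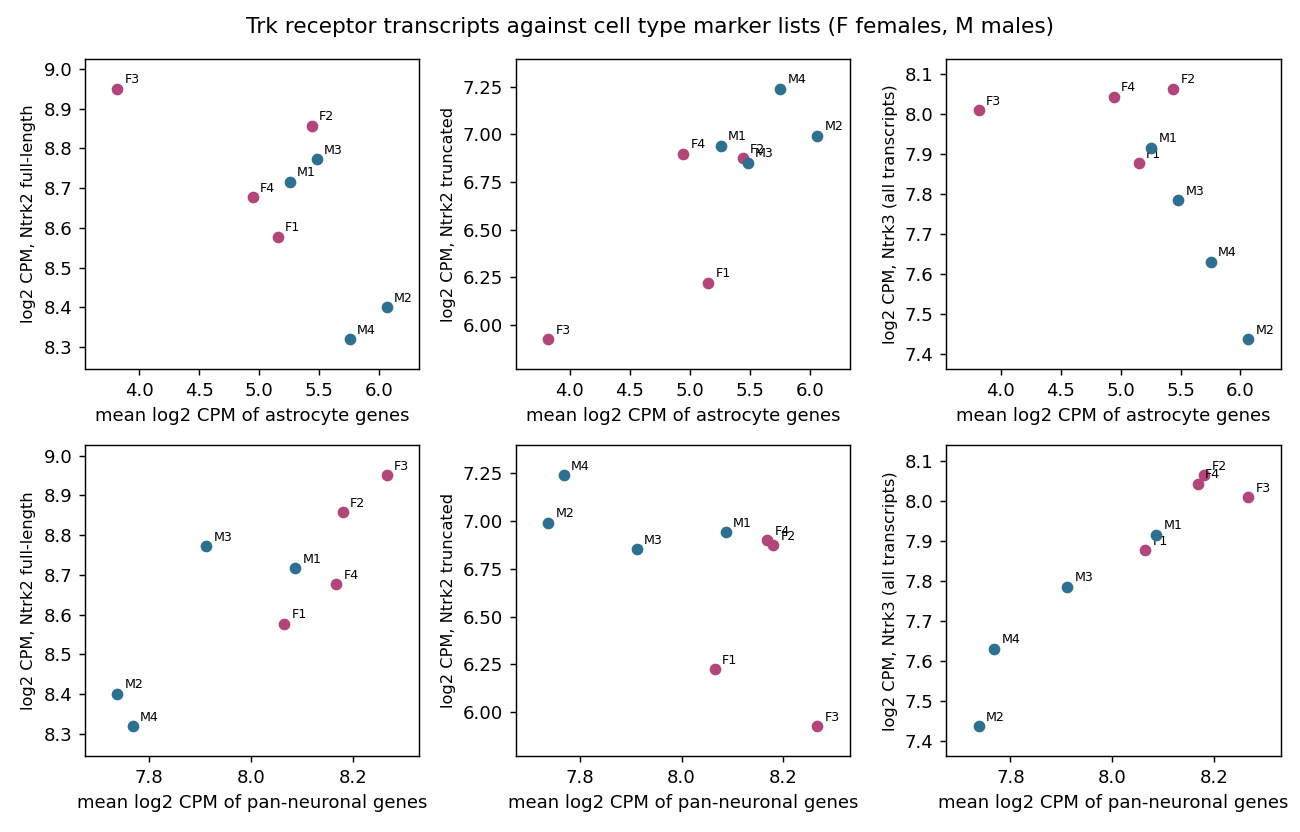
Log2 CPM of full-length *Ntrk2*, truncated *Ntrk2* and *Ntrk3* in each mouse against the mean log2 CPM of the astrocyte genes (top) and of the pan-neuronal genes (bottom), with females (F) and males (M) numbered. *Ntrk3* rises with the pan-neuronal mean (r = 0.952), and female 3 stands at the low end of both the astrocyte mean and truncated *Ntrk2*.

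Around these 6 genes, 76 genes of the pathway were listed in 5 groups. Of them 73 were tested and none passed the adjusted test of edgeR in either direction. With DESeq2 13 passed, of the 72 for which it gave an adjusted p. Among them were *Sorl1*, *Pcsk2* and *Arc*, higher in females, and *Pcsk1*, *Fos*, *Fosb* and *Junb*, higher in males. The DESeq2 count stands against 7.93% of all genes DESeq2 tested. Unadjusted edgeR p-values under 0.05 were found for 13 genes higher in females and 15 higher in males, where all tested genes gave 9.86% and 10.7%. For the groups below, genes are named from the 4 with the highest mean TPM, and differences are log2 fold changes of females over males, with edgeR adjusted p-values.

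Among the receptors related to sortilin, which sort neurotrophins and their receptors within cells, 3 of 4 were higher on average in females at an unadjusted p under 0.05. Over all tested genes that share was 9.86%, and none of the 4 passed the adjusted test. *Sorl1* measured 163 to 210 CPM in females and 120 to 149 CPM in males, without overlap (log2 fold change 0.48, SE 0.100, adjusted p = 0.0797). In log2 CPM 6.48% of all tested genes were higher in females without overlap. *Sorcs1* had a log2 fold change of 0.45 (SE 0.142, adjusted p = 0.151) and *Sorcs2* of 0.38 (SE 0.133, adjusted p = 0.175). *Sorcs3* showed -0.06 (adjusted p = 0.866), and so stood apart from the other 3, although that difference was not tested.

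Of the 11 genes for cutting and releasing pro-neurotrophins, 5 had a positive and 6 a negative fold change (median -0.04), and the 2 prohormone convertases most abundant here leaned in opposite directions. *Pcsk2* lay at 183 to 232 CPM in females and 118 to 149 CPM in males (log2 fold change 0.61, SE 0.105, adjusted p = 0.0656). *Pcsk1* lay at 39.2 to 46.7 CPM in females and 48.0 to 76.7 CPM in males (log2 fold change -0.53, SE 0.142, adjusted p = 0.113). Neither had overlapping sexes and neither passed the adjusted test. Such separation in log2 CPM occurred in 6.48% of all tested genes toward females and in 3.94% toward males. Among these 11 genes it occurred for 1 toward females and for 3 toward males. An unadjusted p under 0.05 was likewise reached by 1 gene toward females and 3 toward males, against a background of 9.86% and 10.7%. *Cpe*, a carboxypeptidase of the secretory granule, and *Cadps2*, a factor for granule release, had log2 fold changes of 0.07 (adjusted p = 0.667) and -0.04 (adjusted p = 0.866).

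Adaptors that bind Trk receptors or p75 went both ways, with 10 positive and 10 negative of 20 and a median of -0.0016, and 2 higher in females and 4 higher in males at an unadjusted p under 0.05 (9.86% and 10.7% of all tested genes). The most abundant were the p75 partners *Maged1* (718 TPM, log2 fold change 0.13, adjusted p = 0.523) and *Bex3* (599 TPM, 0.03, adjusted p = 0.888). *Kidins220*, a scaffold that binds Trk receptors and p75, measured 459 to 527 CPM in females and 392 to 448 CPM in males (0.25, SE 0.0779, adjusted p = 0.150). *Grb2*, which links receptor tyrosine kinases to Ras, showed -0.07 (adjusted p = 0.637).

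Of the 22 downstream kinase and CREB genes, 13 were positive and 9 negative (median 0.02). *Mapk3*, which encodes ERK1, had a log2 fold change of 0.28 (SE 0.0964, adjusted p = 0.174), *Map2k1* (MEK1) of 0.08 (adjusted p = 0.685) and *Hras* of 0.09 (adjusted p = 0.524). Of these 22 genes, 6 had an unadjusted p under 0.05 with the higher level in females and 1 with the higher level in males (9.86% and 10.7% of all tested genes).

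Genes that neuronal activity and BDNF induce leaned toward males, with 12 of 16 negative and a median of -0.48. At an unadjusted p under 0.05, 7 were higher in males and 1 in females (10.7% and 9.86% of all tested genes). In the female direction *Arc*, named after its values were seen, had a DESeq2 log2 fold change of 0.51 (Wald test, adjusted p = 0.00767). It did not pass the adjusted test of edgeR. Among the genes that the DESeq2 Wald test called higher in males were *Fosb* (adjusted p = 0.000701), *Fos* (adjusted p = 0.0240) and *Junb* (adjusted p = 0.0210). The immediate early gene *Fosb* measured 286 to 391 CPM in females and 440 to 496 CPM in males (-0.50, SE 0.102, adjusted p = 0.0797). *Fos* had a log2 fold change of -0.45 (SE 0.134, adjusted p = 0.136), *Egr1* of -0.50 (SE 0.213, adjusted p = 0.231) and *Junb* of -0.73 (SE 0.237, adjusted p = 0.157). None of *Fosb*, *Fos*, *Egr1* and *Junb* passed the adjusted test of edgeR. The same genes respond to cell dissociation and are expressed by microglia, whose markers leaned the same way, and the part of either was not tested.

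**Figure D5:**
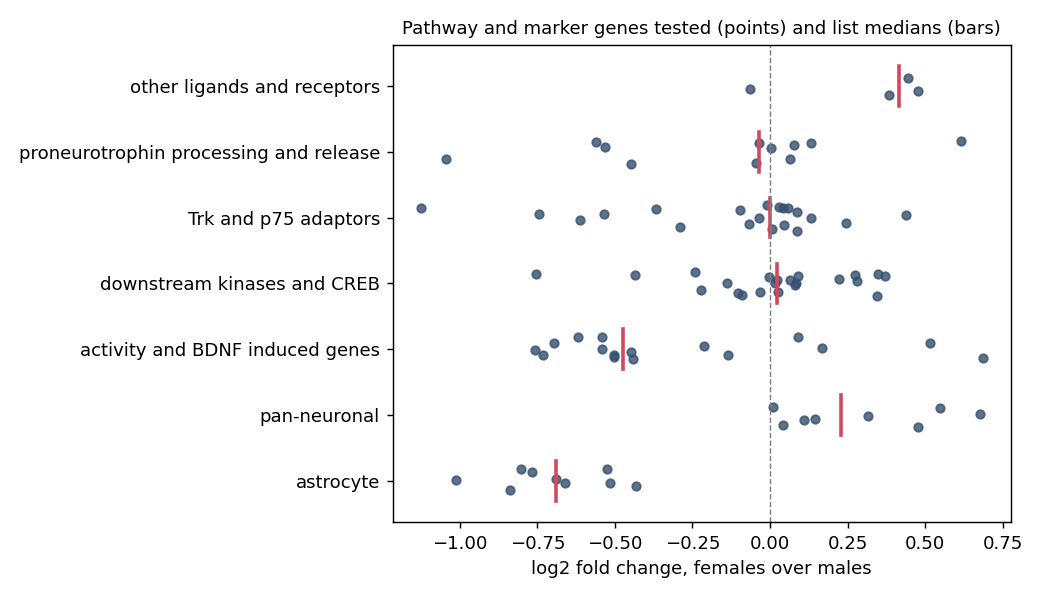
Log2 fold change of females over males for every tested gene (points, spread vertically for visibility) of 5 pathway groups and of the pan-neuronal and astrocyte lists, with a bar at each list's median. The activity group (median -0.48) and the astrocyte list (median -0.69) lie mostly below 0, the pan-neuronal genes (median 0.23) all above it, and adaptors and kinases around it.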

How the data were processed

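RNA of sorted tdTomato-labeled SST neurons was prepared with a Qiagen micro kit and a SMARTer Stranded Total RNA-Seq Kit v2 and sequenced from a single end, 1 library a mouse. The authors estimated transcript abundance with kallisto 0.46.2 (mm10; use of strand is not given in the sources used here) and deposited estimated counts, which are not normalized, and TPM, in 2 blocks per mouse whose meaning is not given in the sources used here. The submitters' notes also name DESeq2 2.11.40.6. Counts of both blocks were summed and TPM averaged. Of 118489 transcripts, 116728 matched GENCODE M21, and the rest (0.429% to 0.611% of counts) were left out. Antisense genes that overlap *Bdnf*, *Ntrk2*, *Ntrk3* and *Sort1* are not among the genes analysed, so their reads could not be told apart.

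Gene counts were rounded and tested with edgeR 4.0.16 (R 4.3.3; TMM factors 0.841 to 1.16, default filter by sex, quasi-likelihood test, Benjamini-Hochberg over all genes tested, sex the only term). DESeq2 1.42.0 was an alternative. Log2 CPM used a prior count of 2. Exact permutation tests were 2-sided (Python 3.11.15, numpy 2.4.6, pandas 2.3.3, scipy 1.17.1). The labels call the samples separate mice by sex and number. On simulated counts for the female against male comparison over 14917 genes, the test called 133 genes, of which 3 were unchanged, and detected 49.0% of 2-fold changes and 84.5% of 4-fold ones.

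The members and lists were chosen with earlier results of these data known. Named are the 6 members, list genes past the threshold (none) or the 4 per list with the highest mean TPM, and for each tested member the 3 genes of at least 10 CPM most correlated with it. Promoters came from RefSeq (GRCm38.p6), which had entries for *Bdnf*, *Ntf3*, *Ntrk2* and *Ngfr*. The alternatives were another test, normalization, filter, block, length offset or *Lars2* left out, a replicate block, and each mouse left out. Results for some genes of the lists are not reported here.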

Additional observations from a re-analysis of the deposited data

Results flagged for a closer look

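In 38 sets of 4 mice of one sex, a single mouse stood apart from the other 3 in 2 cases by Dixon's test at the 95% level, where chance gives about 1 in 20. In female 4 the transcript with the cassette exon took 3.89% of coding *Sort1* TPM, against 41.9% to 44.8% in the other females. In female 3 the noncoding and otherwise incomplete transcripts took 4.34% of all *Ntrk2* TPM, against 0.719% to 1.29% in the other females. A transcript of 583 bases, *Ntrk2-203*, measured 6.11 TPM there on 25.8 estimated counts and was at 0 in the other 7 mice.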

How the results depend on the processing

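None of the 5 tested members and none of the 6 *Ntrk2* and *Ntrk3* classes passed the threshold under any alternative run, although DESeq2 gave an adjusted p for only 5 of the classes (each block alone, another normalization, other filters, without *Lars2*, a length offset for the members, DESeq2, a replicate block, and each mouse left out). Of 149 alternative values for 9 genes and classes, 147 kept direction and side. The 2 that turned were *Ngfr* (0.10) and *Sort1* (-0.0061), both without male 1; leaving out 1 mouse gave -0.55 to 0.10 and -0.0061 to 0.10 for these genes. *Bdnf* ranged from 0.27 to 0.77, *Ntrk3* from 0.22 to 0.44 (lowest adjusted p 0.0611) and truncated *Ntrk2* from -0.63 to -0.32 (lowest adjusted p 0.135). Over all genes the count of 24 became 1016 with DESeq2, and 8 to 415 when 1 mouse was left out, and leaving out female 1, female 2, female 3 or female 4 gave 415, 10, 13 and 9 genes and male 1, male 2, male 3 or male 4 410, 13, 8 and 13. Of the pathway genes, 13 passed with DESeq2, and leaving out 1 mouse gave 0 to 5, with *Pcsk2* without female 1, and *Fosb*, *Nr4a1*, *Pcsk2* and *Shc1* among the 5 without male 1, genes named after their values were seen. The cause of these changes was not tested. The difference in truncated share of *Ntrk2* lay between -11.5 and -6.00 points when 1 mouse was left out.

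Same-numbered females and males had correlations of deviations of -0.396, -0.156, 0.0355 and 0.0719, and 1 gene passed with the replicate block. The labels do not say what the numbers mean, and so few correlations cannot show whether the mice were paired. Permuting the sexes within replicate numbers gave an exact permutation p = 0.125 for the truncated share, the smallest that 4 pairs allow, the share being lower in the female of all 4. Depth limits *Bdnf*, *Ngfr* and *Ntf3* most, with at most 237 counts in a mouse.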

Other observations

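Over the 8 mice, the genes whose log2 CPM went most closely with that of *Ntrk3* were *Snrpn* (r = 0.986), *Itsn1* (0.985) and *Arhgap32* (0.984). For *Ntrk2* they were *Frat1* (r = 0.948), *Fam92a* (0.943) and *Hspbp1* (0.939), for *Sort1* *Noc4l* (r = 0.960), *Fbxo7* (0.948) and *Synj2* (0.934), for *Bdnf* *Carmil1* (r = 0.952), *Pkib* (0.928) and *Olfr639* (0.923), and for *Ngfr* *Tomm7* (r = 0.950), *Rnf113a2* (0.940) and *Gpn3* (0.923). These are the highest of about 10018 correlations per gene over the same 8 libraries, given as a description. While *Ntrk3* had 371 genes above an r of 0.9, *Ntrk2* had 20, *Ngfr* 11, *Bdnf* 8 and *Sort1* 6.

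Full-length *Ntrk2* and *Ntrk3* went together over the mice (r = 0.804), full-length and truncated *Ntrk2* went apart (r = -0.566), and *Ngfr* and *Sort1* also went apart (r = -0.752). *Bdnf* had an r between -0.0706 and 0.203 with the other members. Genes listed for neurons of the neighbouring ventromedial nucleus, a site known for *Bdnf*, were *Nr5a1*, *Fezf1*, *Sox14*, *Vgll2*, *Adcyap1* and *Slc17a6*. They summed to 123 to 281 CPM in females and 70.3 to 196 CPM in males, and their part in the *Bdnf* level was not tested. Their mean levels ran from 0.676 to 90.5 TPM, so the sum follows the abundant ones and does not measure cells of that nucleus. The other markers, vascular genes, summed to between 27.4 and 88.5 CPM.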
